A study of Mus musculus with 34 samples.

Results

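The genes described here are 10 nuclear genes for mitochondrial proteases and chaperones, namely Clpx, Clpp, Lonp1, Hspd1, Hspe1, Hspa9, Trap1, Afg3l2, Yme1l1 and Htra2. They were taken by gene symbol from 2 tables of normalized expression in mouse left ventricle (LV), and each was found once among the 14552 genes of the first table and once among the 17406 genes of the second. The set was chosen by the fall of Clpx 24 h after myocardial infarction (MI) in the first table, against which the other members are set, so the values of that time point are given as a description, with no test.

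Most mitochondrial proteins are made in the cytosol and imported unfolded, and the matrix and inner membrane hold their own machinery to fold them and to degrade those that fail. Hspa9 (mortalin) pulls proteins through the import channel and starts their folding, Hspd1 (Hsp60) with its lid Hspe1 (Hsp10) forms the folding chamber of the matrix, and Trap1 is the mitochondrial Hsp90. Clpx is an ATP-driven unfoldase that feeds proteins into the peptidase chamber formed by Clpp, Lonp1 is a matrix protease that combines both activities in 1 chain, Afg3l2 and Yme1l1 are proteases of the inner membrane, and Htra2 is a serine protease of the intermembrane space. The ventricle is rich in mitochondria because its contraction relies on oxidative phosphorylation.

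Hspd1 and Hspe1 lie head to head on mouse chromosome 1, and the short stretch between them carries binding units of the heat shock factor, which is the sequence most relevant to how the 2 genes are read beside the cytosolic heat shock genes. In RefSeq promoters on GRCm38.p6 (250 bases before to 50 after a start), windows were found for Clpx, Clpp, Lonp1, Hspd1, Hspe1, Trap1 and Yme1l1, and Hspa9, Afg3l2 and Htra2 had no entry. A run of 4 alternating units, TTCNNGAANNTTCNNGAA or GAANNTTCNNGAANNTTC on either strand, was present in 8 of 32851 windows (0.0244%), including those of Hspd1 and Hspe1. It overlaps the run of 3 units, GAANNTTCNNGAA or TTCNNGAANNTTC, which was present in 198 windows (0.603%) and in no other member with a window. The same double-stranded site, read towards each gene, is written out here with the 4 units in capitals, from chr1:55088051-55088080 on the plus strand for Hspe1, where the run begins 89 bases before the start, and from chr1:55088055-55088084 on the minus strand for Hspd1, where it begins 144 bases before the start.
Hspe1: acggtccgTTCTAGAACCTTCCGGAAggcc
Hspd1: gcggggccTTCCGGAAGGTTCTAGAAcgga
Clpp had a pair of units, TTCNNGAA, 33 bases after its start, an arrangement present in 8.52% of windows. The letters TGATGNAA, a form of the site bound by Atf4 (the transcription factor of the integrated stress response), were found in 3.97% of windows and in none of the members' windows. In the deposited coordinates, Hspd1 ends at 55087933 and Hspe1 starts at 55088148, so the 2 do not overlap and the site lies between them. In GENCODE M21, which the counts of the first table did not use, the gene model of Hspd1 extends to 55088243. That model overlaps Hspe1 on the other strand and holds the site. These matches describe the letters of the windows, and no binding was measured.

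The first table holds 10 uninjected hearts of CFW (Swiss Webster) mice, of which 3 were sham, 3 were collected 4 h and 4 were collected 24 h post-MI. A lasting tie on the left anterior descending artery produced the MI, and RNA came from the part of the ventricle without blood supply, or from the matching part of the control hearts. The sample labels give the 3 control hearts of this table no operation, whereas the study's methods call them sham. In the second table, 24 libraries come from sham-operated mice (2 libraries, labelled with 4 h) and from mice with the same ligation. The latter received modRNA (chemically modified messenger RNA) in the border zone directly afterwards. The modRNA was either Luc (luciferase, the control) or AC, a name that the labels do not spell out, and hearts were collected at 4 h (4 AC, 4 Luc), 24 h (3 AC, 3 Luc) and 48 h (4 AC, 4 Luc). Sham hearts share a numbering of libraries with the 4 h hearts alone, and the 24 h and 48 h hearts have numberings of their own. Titles of the 24 h libraries also carry the letters Br, which no other title has and which the titles do not spell out. Time and library set can therefore not be told apart in the second table. Values are in CPM (reads of a gene scaled to a common library size), each table was normalized on its own, and levels are compared only within a table. Labels do not say that libraries come from separate mice in the second table, and p-values then measure only the spread between these libraries.

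The labels and the tissue were checked on other genes. Asah1, the acid ceramidase gene, was at 5296 to 13703 CPM in the AC hearts of 4 h, at 104 to 305 CPM at 24 h and at 42.5 to 112 CPM at 48 h, against 21.4 to 32.9 CPM over all Luc and sham hearts of that table. The summed level of 7 ventricular cardiomyocyte markers was 41936 to 44620 CPM in the sham hearts of the first table and 46653 to 46871 CPM in those of the second. It was lower in the first table at 24 h (20010 to 33251 CPM) and in the second at 48 h (Luc 31449 to 45080, AC 23008 to 29552 CPM). Over the same groups, the sum of 7 neutrophil and monocyte markers was 52.2 to 112 CPM (sham) and 456 to 2022 CPM (24 h) in the first table, and 69.8 to 152 CPM (sham), 217 to 495 CPM (Luc 48 h) and 372 to 478 CPM (AC 48 h) in the second. The atrial markers Myl7, Myl4 and Sln summed to 0.945 to 3.02 CPM in all sham and 4 h hearts of the second table but to 23.5 to 353 CPM at 24 h and 4.35 to 95.0 CPM at 48 h. In the first table, where Myl7 is not listed, the other two summed to 1.01 to 3.01 CPM. The part of these changes in tissue make-up in the results on the members was not tested, and fewer cells of a type cannot be told apart from less RNA per cell.

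Divided by transcript length, the members kept a similar order in the sham hearts of both tables. Hspa9 was highest, at 203 CPM per kb in the first table and 277 in the second, followed by Hspd1 (112 and 135), whereas Yme1l1 (13.6 and 10.2) and Htra2 (8.67 to 9.28 and 9.05 to 10.4) were lowest. Clpx was at 33.6 CPM per kb (32.0 to 35.9, n = 3) against 27.1 for Clpp (24.9 to 29.5, n = 3) in the first table, and at 46.6 (44.6 to 48.5, n = 2) against 27.3 (25.5 to 29.1, n = 2) in the second, so the ranges of unfoldase and peptidase did not overlap. In the second table, Afg3l2 (47.1 to 48.8), Clpx and Lonp1 (36.9 to 50.1) overlapped one another.

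Clpx (chromosome 9, 65294260 to 65330659 on mm10 as deposited, plus strand, 14 exons) was the member that fell in the contrast used to choose the set. Its level in sham hearts of the first table was 104, 94.7 and 92.4 CPM, at 4 h 112, 104 and 109 CPM, and at 24 h 40.5, 61.8, 72.8 and 51.1 CPM. All 4 hearts of 24 h were therefore below all 6 others, and the group mean was 56.5 ± 13.9 CPM (SD, n = 4) against 96.9 ± 5.97 CPM (SD, n = 3), a ratio of 0.583 ± 0.148 (propagated SD). At 4 h, a time point that the choice did not use, the difference from sham was 0.16 ± 0.17 on the log2(CPM + 1) scale (SE, limma, q = 0.700), where q is the Benjamini-Hochberg adjusted p-value over 12487 genes.

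**Figure D1:**
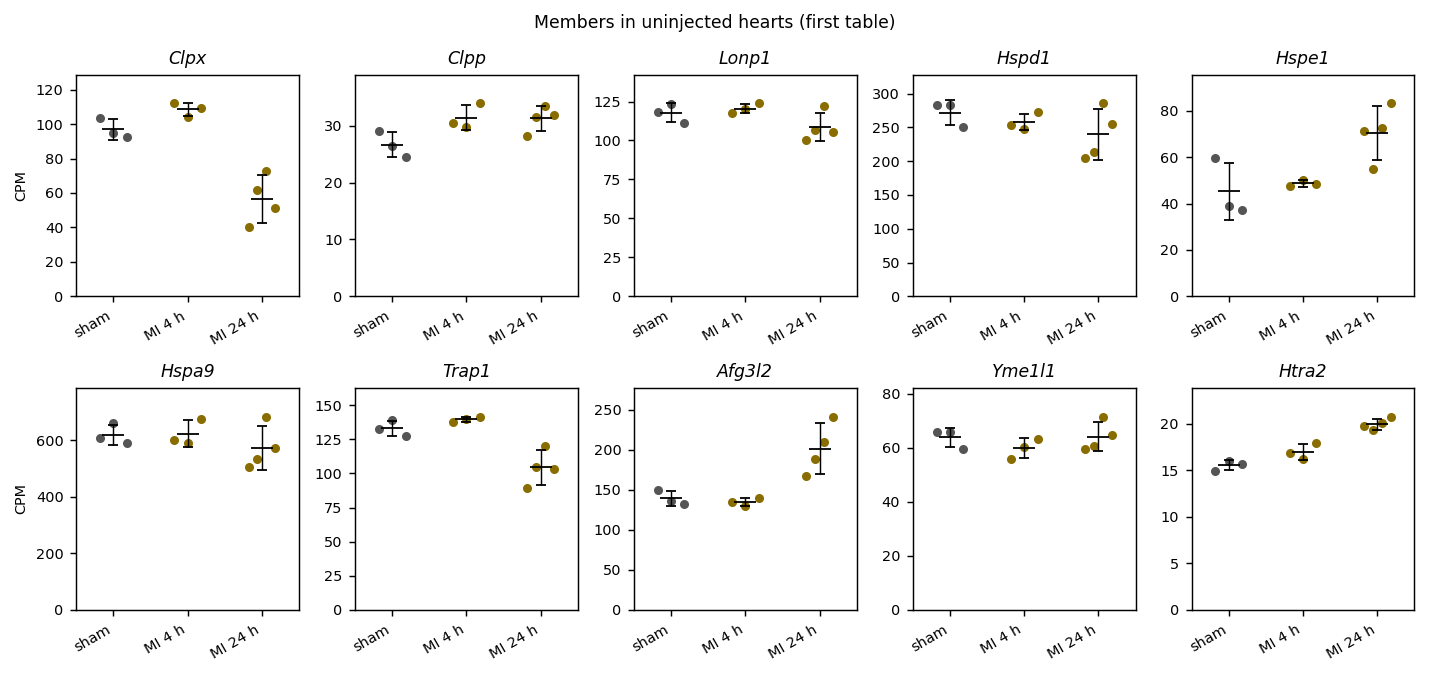
Expression (y axis, CPM, from 0) of each member in the 3 sham, 3 MI 4 h and 4 MI 24 h hearts of the first table (x axis). Points are libraries, horizontal ticks are group means and bars are SD; the 4 Clpx points of 24 h (40.5 to 72.8 CPM) lie below all others, and those of Afg3l2 (167 to 242 CPM) above.

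Clpx did not follow the same course in the second table. Sham hearts had 140.1 and 129 CPM, and Luc hearts had 115, 109, 113 and 104 CPM at 4 h and 119, 116 and 127 CPM at 24 h. The Luc values at both times lay under both sham values, as did those of 15.3% of all genes at 4 h and 18.5% at 24 h. The fitted differences from sham were -0.28 and -0.15 on the log2 scale, and neither passed the test (q = 0.548 and 0.609). At 48 h, the Luc hearts had 96.1, 76.1, 85.2 and 61.6 CPM, all below every sham, 4 h and 24 h heart of the Luc group. Clpx was lower by -0.76 ± 0.20 (log2, SE, q = 0.00646) at 48 h than in sham, a ratio of means of 0.593 ± 0.114. This call was lost without the first sham library and in a model of these 2 groups alone (q up to 0.0702), and against the 4 Luc hearts of 4 h the difference was -0.48 (q = 0.0263). Whether the 24 h hearts of the 2 tables differ was not tested, since their tissue, injection and normalization differ too.

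Clpp, the peptidase partner of Clpx, was not below sham in Luc hearts of 48 h, although both genes were lower there than at 24 h. Clpp (chromosome 17, 56990264 to 56996372, plus strand) was at 29.0, 26.5 and 24.5 CPM in sham, 30.5, 29.8 and 33.9 CPM at 4 h and 28.3, 31.6, 33.5 and 31.8 CPM at 24 h in the first table. Its 4 h difference of 0.23 ± 0.10 (log2, SE) did not pass (q = 0.302). Luc hearts of the second table had 42.2, 42.1 and 49.6 CPM of Clpp at 24 h against 28.6 and 25.1 CPM in sham, a rise of 0.71 ± 0.23 (log2, SE, q = 0.0200) which is lost without either sham library, without Luc replicate D or after median-ratio rescaling (q up to 0.110). By 48 h, the Luc values were 36.2, 27.0, 27.9 and 27.2 CPM, lower than at 24 h by -0.58 ± 0.19 (q = 0.0182), beside -0.61 (q = 0.00894) for Clpx, and at a difference from sham that did not pass the test (0.13 ± 0.22, q = 0.698). The fall from 24 h was lost without Luc replicate D of 24 h (q = 0.0842) and after rescaling (q = 0.140).

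The ratio of Clpx to Clpp CPM, taken within each library, was 3.57 to 3.77 in the sham hearts of the first table, 3.22 to 3.68 at 4 h and 1.43 to 2.17 at 24 h. In the second, it was 4.89 and 5.13 in sham, 2.71 to 4.31 in Luc hearts at 4 h, 2.56 to 2.82 at 24 h and 2.27 to 3.05 at 48 h. It was thus below both sham hearts in every Luc heart, from 4 h on. The mean log2 ratio was 1.44 at 24 h, when Clpp was high, against 1.42 at 48 h. The Luc groups of 48 h and 4 h overlapped, and their mean log2 ratios of 1.42 ± 0.18 and 1.77 ± 0.29 (SD, n = 4 each) did not differ by an exact permutation test (two-sided p = 0.114, adjusted p = 0.343 over 3 tests of this ratio, with 0.0286 as the smallest p that 70 labelings allow).

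**Figure D2:**
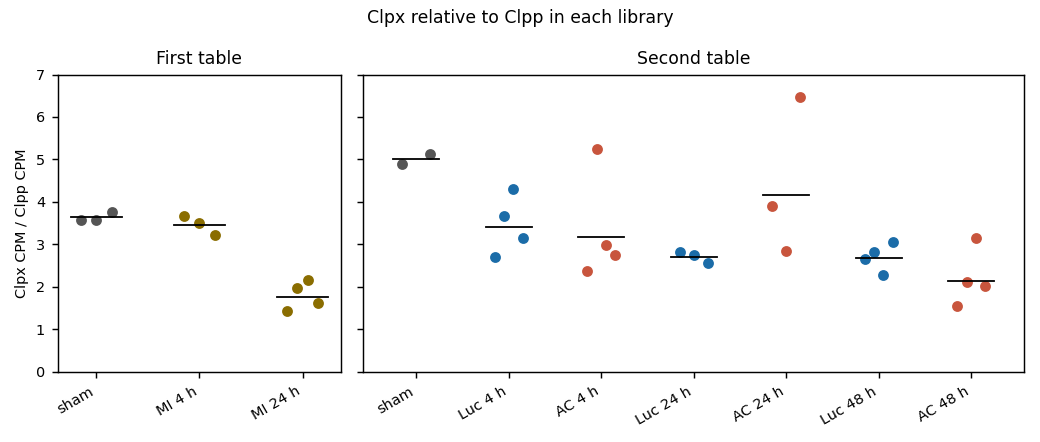
Ratio of Clpx CPM to Clpp CPM (y axis, from 0) in every library of the first (left) and second (right) table by group (x axis); lines are geometric means. The 24 h hearts of the first table (1.43 to 2.17) lie below its other hearts (3.22 to 3.77), and the 2 sham hearts of the second table (4.89 and 5.13) lie above all its Luc hearts (2.27 to 4.31).

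Lonp1 (chromosome 17, 56614298 to 56626904, minus strand) stood between them. In the first table it was 118, 124 and 111 CPM in sham, 118, 120.2 and 124 CPM at 4 h and 101, 107, 122 and 105 CPM at 24 h, and all groups overlapped. In Luc hearts it reached 167, 159 and 192 CPM at 24 h, above both sham values (109 and 148 CPM) and all 4 h values (129 to 144 CPM). The rise was 0.44 ± 0.15 against sham (log2, SE, q = 0.0281) and 0.37 ± 0.13 against 4 h (q = 0.0279). The first was lost without the first sham library (0.22) or Luc replicate D, in a model of the 2 groups alone, with array weights and after median-ratio rescaling (0.24, q up to 0.422), and the second without Luc replicates 2, 3 or 4 of 4 h or A or D of 24 h and after rescaling (0.20, q up to 0.175). At 48 h Lonp1 was 108, 89.6, 97.7 and 100.1 CPM, a fall of -0.80 ± 0.13 from 24 h (q = 7.42e-05) that left it at -0.36 ± 0.14 against sham (q = 0.0588), a difference that passed without the first sham library (-0.58, q = 0.0220) or Luc replicate 1 (-0.40, q = 0.0477).

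Among the chaperones, Trap1 (chromosome 16, 4039977 to 4077811, minus strand) was the other member below sham in the first table, at 133, 139 and 128 CPM in sham, 138, 139.6 and 142 CPM at 4 h and 89.6, 105, 120.2 and 103 CPM at 24 h. Every 24 h heart was under every sham heart, with a ratio of means of 0.784 ± 0.0997. Trap1 of the second table was not lower at 24 h, when Luc hearts had 148, 155 and 182 CPM against 131 and 152 CPM in sham. It fell at 48 h to 98.1, 76.7, 83.5 and 88.2 CPM, by -0.70 ± 0.14 against sham (log2, SE, q = 0.000620), and this call held in all 15 alternatives. Its gene overlaps Dnase1 on the other strand, and the use of strand in counting is not given in the sources used here.

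Hspa9 (chromosome 18, 34937415 to 34954352, minus strand), the most abundant member, ranged from 588 to 676 CPM in sham and 4 h hearts of the first table and from 505 to 682 CPM at 24 h, which overlapped. In Luc hearts of the second table it was 705, 514, 502 and 476 CPM at 48 h against 886 and 801 CPM in sham, a fall of -0.63 ± 0.15 (q = 0.00311). Hspd1 (chromosome 1, 55077834 to 55087933, minus strand) also overlapped between all groups of the first table, from 248 to 283 CPM in sham and 4 h hearts and at 204, 214, 285 and 256 CPM at 24 h. Hspd1 was already lower in Luc hearts of the second table at 24 h, at 251, 190.3 and 253 CPM against 353 and 302 CPM in sham (-0.51 ± 0.16, q = 0.0192), and at 48 h it was 229, 211, 151 and 205 CPM (-0.73 ± 0.15, q = 0.00127). Without the first sham library the 48 h fall of Hspa9 was lost (q = 0.0505), as was the 24 h fall of Hspd1 (q = 0.198), which was also lost without Luc replicate C (q = 0.0971). In models of the 2 groups alone, q was 0.0976 for Hspa9 and 0.0618 for Hspd1 at 48 h and 0.0945 for Hspd1 at 24 h.

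Hspe1 (chromosome 1, 55088148 to 55091318, plus strand) encodes the lid of the chamber formed by Hspd1. In the first table it was 59.6, 38.8 and 37.4 CPM in sham, 47.5, 50.3 and 48.2 CPM at 4 h and 71.2, 54.7, 72.6 and 83.1 CPM at 24 h. No difference between Hspe1 and Hspd1 was tested, and the sham heart with 59.6 CPM of Hspe1 reached into the range of the 24 h hearts. The second table gave Hspe1 at 97.7 and 44.3 CPM in the 2 sham hearts, with an SE of 0.30 to 0.32 (log2) on each of its contrasts with sham, and none of them passed, although without the second sham heart the Luc hearts of 24 h did (-1.05, q = 0.0288). Luc hearts had 89.0, 79.9, 69.0 and 86.2 CPM at 4 h and 47.0, 47.0 and 46.0 CPM at 24 h, a fall of -0.78 ± 0.26 (q = 0.0276) that was lost in 6 of 7 fits with a library left out (q up to 0.0696), all but the one without Luc replicate 3 of 4 h. Reads of Hspd1, Hspe1 and Hspa9 can be divided with 5, 6 and 1 named pseudogenes, so their levels are less certain than those of the other members.

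Cytosolic heat shock genes, the usual targets of the heat shock factor, were set beside Hspd1 and Hspe1. At 4 h in the first table, 4 of 7 (Hspa1a, Hspa1b, Hspb1 and Dnajb1) were higher than in sham, by 3.10, 3.31, 1.12 and 0.96 on the log2 scale (q = 0.000142, 0.000135, 0.0194 and 0.0491), while Hspd1 and Hspe1 differed by -0.08 and 0.13 (q = 0.839 and 0.773). At 4 h in Luc hearts, Hspa1a, Hspa1b, Hspb1 and Dnajb1 were again higher than in sham, by 4.03, 3.90, 2.02 and 2.22 (q = 0.00210, 0.00299, 0.000174 and 1.22e-06), and Hspd1 and Hspe1 differed by -0.14 and 0.29 (q = 0.722 and 0.700). Hsph1, Hsp90aa1 and Hspa8, the rest of the list, did not pass at 4 h either. They were at -0.31, 0.08 and -0.007 in the first table (q = 0.579, 0.901 and 0.993) and at 0.63, 0.57 and 0.46 in Luc hearts (q = 0.250, 0.0686 and 0.293). Over all genes, 2.37% passed in the first table and 1.55% in Luc hearts. The 2 mitochondrial genes with the 4-unit run thus did not pass, as part of the cytosolic list did not. No difference between mitochondrial and cytosolic genes was tested.

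The 2 proteases of the inner membrane took separate courses. Afg3l2 (chromosome 18, 67404764 to 67449137, minus strand), whose product faces the matrix, was 150.0, 136 and 132 CPM in sham, 135, 130.3 and 140.3 CPM at 4 h and 167, 188, 209 and 242 CPM at 24 h in the first table. All 4 hearts of 24 h were above all others, opposite to Clpx in the same libraries, with a ratio to sham of 1.45 ± 0.247. Afg3l2 in Luc hearts of the second was 177, 147 and 179 CPM at 24 h and 167, 133, 151 and 119 CPM at 48 h, not different from the 146 and 151 CPM of sham (q = 0.398 and 0.734). Yme1l1 (chromosome 2, 23156505 to 23199261, plus strand), whose product faces the intermembrane space, was at 56.0 to 71.5 CPM in all hearts of the first table. In the second, it was 34.4 to 41.2 CPM in Luc hearts of 4 and 24 h and 59.5, 49.7, 44.3 and 52.0 CPM at 48 h, a rise from 24 h of 0.43 ± 0.12 (q = 0.00781) while Clpx fell. The rise was lost without Luc replicate D and in a model of the 2 groups alone (q = 0.0505 in both). Its sham values of 55.6 and 40.1 CPM spanned both levels, and no contrast of Yme1l1 with sham passed, although without the second sham library Luc hearts of 4 and 24 h did (-0.61 and -0.55, q = 0.0493 and 0.0162).

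Htra2 (chromosome 6, 83051267 to 83054572, minus strand), the least abundant member, was 14.9, 16.0 and 15.6 CPM in sham, 16.9, 16.2 and 17.9 CPM at 4 h and 19.7, 19.4, 20.03 and 20.7 CPM at 24 h in the first table, with no overlap between the groups. In Luc hearts it rose to 28.2, 24.6 and 30.8 CPM at 24 h against 15.6 and 17.9 CPM in sham (0.70 ± 0.16, q = 0.00206, kept in all 12 alternatives) and was 17.2, 14.8, 14.4 and 17.97 CPM at 48 h (-0.75 ± 0.13 from 24 h, q = 0.000210). Htra2 overlaps Loxl3 and Aup1 on the other strand, so reads of these genes may be counted in it.

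**Figure D3:**
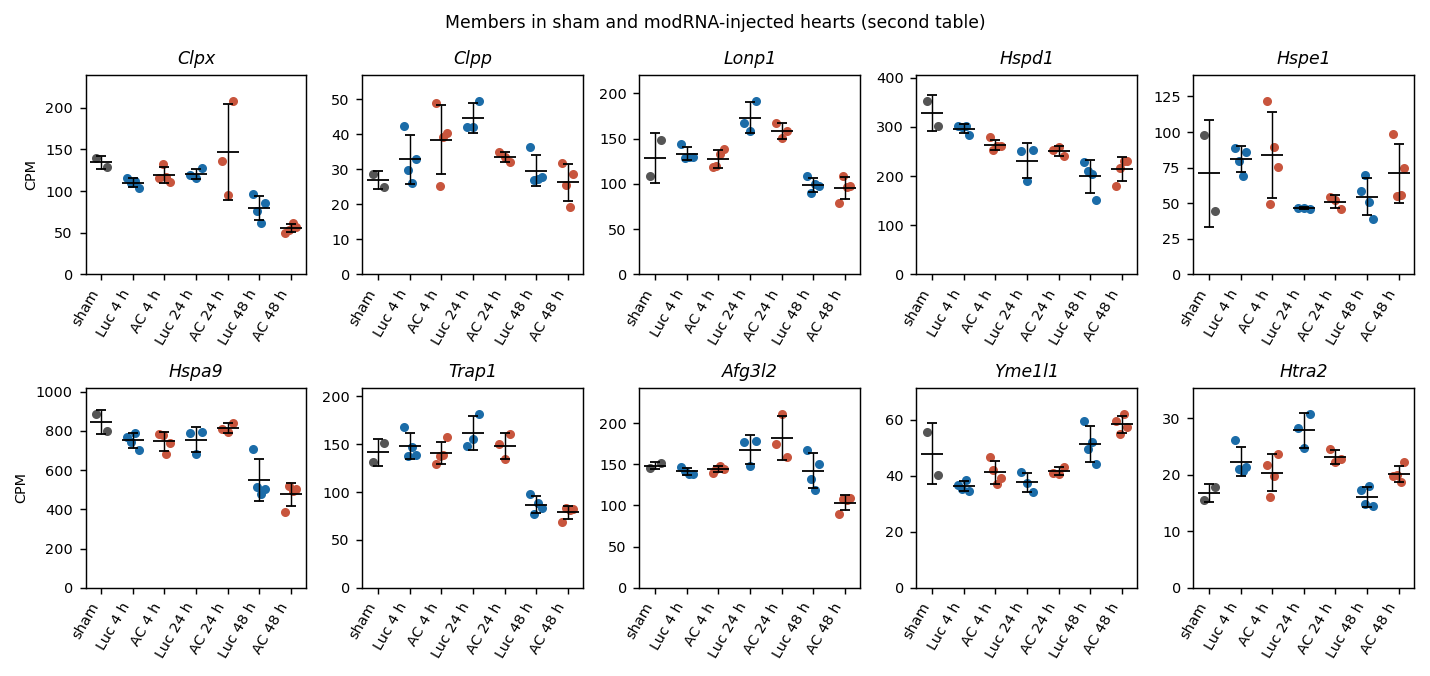
Expression (y axis, CPM, from 0) of each member in the 2 sham hearts and in Luc (blue) and AC (red) hearts at 4, 24 and 48 h (x axis) of the second table. Points are libraries, horizontal ticks are group means and bars are SD; Clpx, Hspa9 and Trap1 are lowest and Yme1l1 is highest in AC hearts of 48 h.

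Counted over the members, none of 10 passed the limma test at 4 h in the first table (1 at an unadjusted p under 0.05), where 2.37% of all genes did, and none passed for Luc at 4 h against sham (2 unadjusted), where 1.55% did. At 24 h in the first table, Clpx and Trap1 lay wholly below the sham hearts and Afg3l2 and Htra2 wholly above, as did 28.7% and 35.3% of all genes, a count fixed in part by the choice of Clpx. For Luc at 24 h against sham, Clpp, Lonp1 and Htra2 were higher and Hspd1 was lower (34.1% of all genes called, 25.3% higher and 8.79% lower). For Luc at 48 h against sham, 4 members were lower (Clpx, Hspd1, Hspa9 and Trap1) and none was higher, where 30.1% of all genes were called (13.7% higher, 16.4% lower), and the median log2 difference was -0.33 over the members and -0.03 over all genes. At that time 5 members lay wholly below both sham hearts and none above (21.6% and 19.2% of all genes). From 4 to 24 h in Luc hearts, Lonp1 was higher and Hspd1 and Hspe1 were lower (32.3% of all genes called), but Hspd1 (-0.37 ± 0.14, q = 0.0413) was lost without any 1 of the 4 Luc hearts of 4 h or replicate C of 24 h (q up to 0.248). From 24 to 48 h in Luc hearts, Yme1l1 was higher and Clpx, Clpp, Lonp1, Hspa9, Trap1 and Htra2 were lower (41.9% of all genes called, 9.32% higher and 32.6% lower), with medians of -0.53 over the members and -0.25 over all genes. Rescaling by the median ratio moved the median of all genes by 0.22 (log2) in the last contrast, by -0.17 for Luc at 24 h against sham and by -0.15 for Luc at 24 h against 4 h. With it, 2003 genes were higher and 2086 lower from 24 to 48 h, 2292 higher and 2043 lower at 24 h against sham, and 1968 higher and 1788 lower at 24 h against 4 h. Clpx, Clpp and Hspa9 then no longer passed from 24 to 48 h, and at 24 h against sham Htra2 alone was higher while Hspd1 and Yme1l1 were lower.

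**Figure D4:**
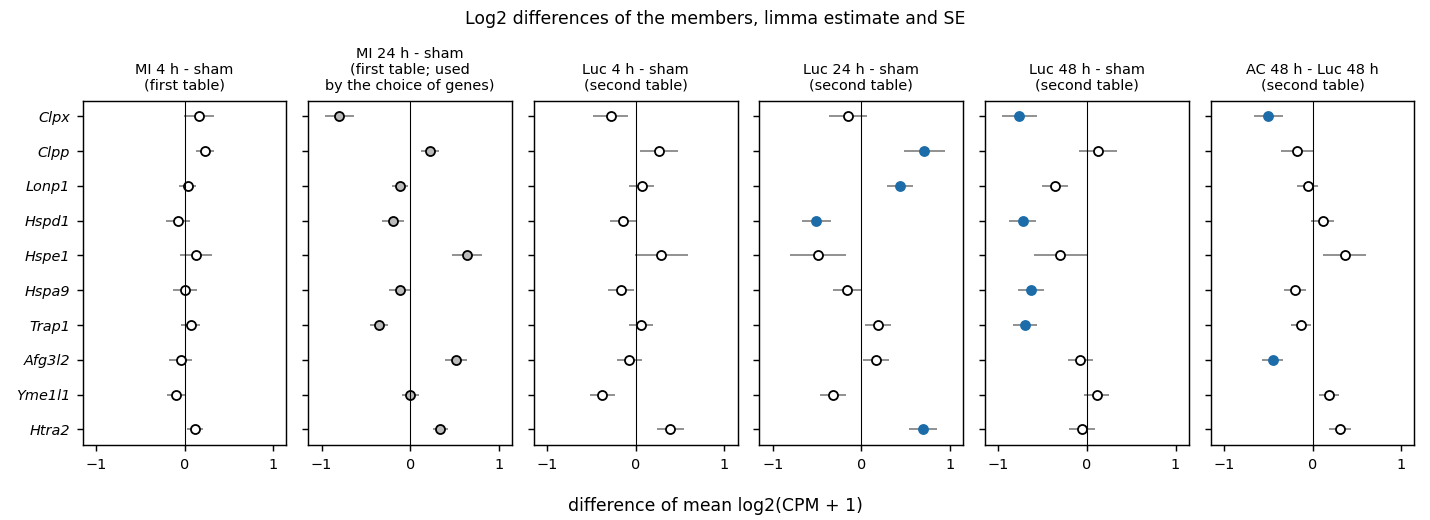
Difference of mean log2(CPM + 1) (x axis) of each member (y axis) in 6 comparisons, with limma's SE as bars. Filled blue points passed q under 0.05, open points did not, and the grey points of the contrast used to choose the genes carry no test; Clpx lies at -0.76 for Luc at 48 h and at -0.50 for AC against Luc at 48 h.

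AC modRNA was set against Luc at each time to ask whether it changed the members. At 4 h and 24 h, none of 10 passed limma's test (0 also at an unadjusted p under 0.05), where 1 gene of 12555 (0.00796%), Asah1, passed at each time. Clpx was 116, 133, 117 and 111 CPM in AC hearts at 4 h, which overlapped the Luc hearts. At 24 h the AC hearts had 136, 95.6 and 208 CPM, the widest spread of any group, and the difference from Luc was 0.21 ± 0.19 (log2, SE, q = 0.991).

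At 48 h, Clpx and Afg3l2 were lower with AC, where 15.3% of all genes were called (3.27% lower and 12.1% higher). The 2 lay wholly below the Luc hearts and Htra2 wholly above (3.58% and 15.5% of all genes). Clpx was 49.5, 53.7, 61.2 and 57.4 CPM in AC hearts, all under the lowest Luc heart of 61.6 CPM, a difference of -0.50 ± 0.16 (log2, SE, q = 0.0412) and a ratio of means of 0.695 ± 0.142. Among the members this was the lowest difference. It was lost when any 1 of the 8 libraries other than Luc replicate 4 was left out (q up to 0.142) and in a model of the 2 groups alone (q = 0.0560). The call for Clpx was also lost with a filter at 10 CPM (q = 0.0533) and with a block for the replicate number (q = 0.192). Afg3l2 was 89.5, 108, 107 and 109 CPM against 167, 133, 151 and 119 CPM with Luc (-0.45 ± 0.11, q = 0.0117, ratio 0.726 ± 0.126), again with no overlap. Its call was lost without Luc replicate 1 (q = 0.0502), in a model of the 2 groups alone (q = 0.0626) and with the replicate block (q = 0.163). In the same comparison 7 of 14 genes for respiratory chain subunits and other mitochondrial proteins were lower, among them Sdha and Cs (-0.48 and -0.43, q = 0.00642 and 0.00773). Of 7 cardiomyocyte markers, Myh6 and Tnnt2 were lower (-0.75 and -0.53, q = 0.0224 and 0.0379). Tnni3, Myl2, Myl3 and Ryr2 were at -0.51, -0.42, -0.60 and -0.54 and did not pass (q = 0.111, 0.243, 0.0911 and 0.0935). Actc1 differed the other way (0.14, q = 0.559). Of 4 fibroblast markers, Col1a1 and Tcf21 were higher (1.84 and 0.77, q = 0.000775 and 0.0109), and Dcn and Pdgfra did not pass (-0.26 and 0.17, q = 0.199 and 0.594). Of 7 neutrophil and monocyte markers, Ccr2 and Lyz2 were higher (2.12 and 1.27, q = 5.65e-05 and 0.00203) and Retnlg was lower (-2.21, q = 0.0227). The part of these genes in the fall of Clpx and Afg3l2 was not tested. Median-ratio rescaling moved all genes by -0.13 here, with 822 genes then higher and 802 lower, and Hspa9 passed beside Clpx and Afg3l2 (-0.35, q = 0.0440). The AC effect itself did not differ between 48 h and 4 h for any member by limma's interaction test (3 unadjusted, where 3.35% of all genes passed), with Clpx at -0.61 ± 0.23 (q = 0.149), nor between 24 h and 4 h (1 unadjusted, where 0.00796% of all genes passed).

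The ratio of Clpx to Clpp in AC hearts was 2.37 to 5.25 at 4 h, 2.84 to 6.47 at 24 h and 1.56 to 3.16 at 48 h. The mean log2 ratio differed from Luc by -0.10 at 4 h (exact permutation test, two-sided p = 0.771, adjusted p = 0.771, n = 4 each) and by -0.33 at 48 h (exact permutation test, p = 0.229, adjusted p = 0.343, n = 4 each). At 24 h the 3 hearts per group cannot reach an exact p of 0.05, and no test was made.

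Within AC hearts, no member passed from 4 to 24 h (3 unadjusted, where 18.7% of all genes passed). Clpx was higher without AC replicate C of 24 h (0.50, q = 0.0343), and Hspe1 was lower after median-ratio rescaling (-0.78, q = 0.0460), which moved all genes by -0.12 and left 1091 higher and 989 lower. Hspe1 was also lower without AC replicate 2 of 4 h (-0.87, q = 0.0179). From 24 to 48 h, Clpx fell by -1.32 ± 0.18 (log2, SE, q = 4.29e-06), the lowest of the 10, followed by Trap1 (-0.90 ± 0.12, q = 4.20e-06), Afg3l2 (-0.80 ± 0.12, q = 2.48e-05), Hspa9 (-0.78 ± 0.13, q = 7.28e-05) and Lonp1 (-0.73 ± 0.13, q = 7.87e-05), where 44.5% of all genes were called (19.0% higher and 25.5% lower). Yme1l1 alone rose, from 41.1, 40.5 and 43.2 CPM to 59.4, 54.9, 62.1 and 57.3 CPM (0.48 ± 0.12, q = 0.00336). All 6 calls held in each of 15 alternatives, including the 4 h hearts in place of the 24 h hearts as the reference, with Clpx then at -1.09 (q = 1.17e-05). The groups AC 24 h and AC 48 h share their hearts with the comparisons against Luc above.

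The fall of Clpx was set against that of mitochondrial genes in general. A list of 14 genes for respiratory chain subunits, ATP synthase, citrate synthase and the outer membrane channel summed to 15836 to 18072 CPM in sham and 9500 to 13816 CPM at 24 h in the first table, and to 19618 to 21104 CPM in sham, 11450 to 17233 CPM in Luc and 9387 to 10918 CPM in AC hearts of 48 h in the second. Relative to this sum, Clpx was lower than in its own sham by -0.24 (log2) at 24 h in the first table and by -0.19 and -0.25 in Luc and AC hearts of 48 h, and also by -0.35 and -0.26 in Luc and AC hearts of 4 h, when Clpx itself had not passed the test for Luc. Clpp was higher relative to the sum by 0.80, 0.71 and 0.98 in the same 3 late groups, Afg3l2 by 1.09, 0.51 and 0.50, and Yme1l1 by 0.57, 0.69 and 1.33. Lonp1 was higher by 0.45, 0.22 and 0.61, and Trap1 differed by 0.21, -0.13 and 0.19. Hspd1 differed by 0.37, -0.15 and 0.41. Relative to the sum of the cardiomyocyte markers, Clpx differed from sham by -0.06 in the 24 h hearts of the first table and by -0.39 and -0.50 in Luc and AC hearts of 48 h. Relative to the mitochondrial genes, mean Clpx was thus slightly below its sham level in each late group, but also in both 4 h groups of the second table. It was at -0.26 in Luc hearts of 24 h and at 0.03 in AC hearts of 24 h. In the first table the 24 h hearts overlapped sham (log2 ratios of -7.88 to -7.57 against -7.58 to -7.41). Mean Clpp, Lonp1, Afg3l2 and Yme1l1 were above their sham levels in each late group. Lonp1 overlapped sham (-7.60 to -7.05) in Luc and AC hearts of 48 h (-7.32 to -6.84 and -7.11 to -6.44). Hspa9, Hspe1 and Htra2 were not set against the sum. Each of these values is a description without a test, as the points share their libraries.

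**Figure D5:**
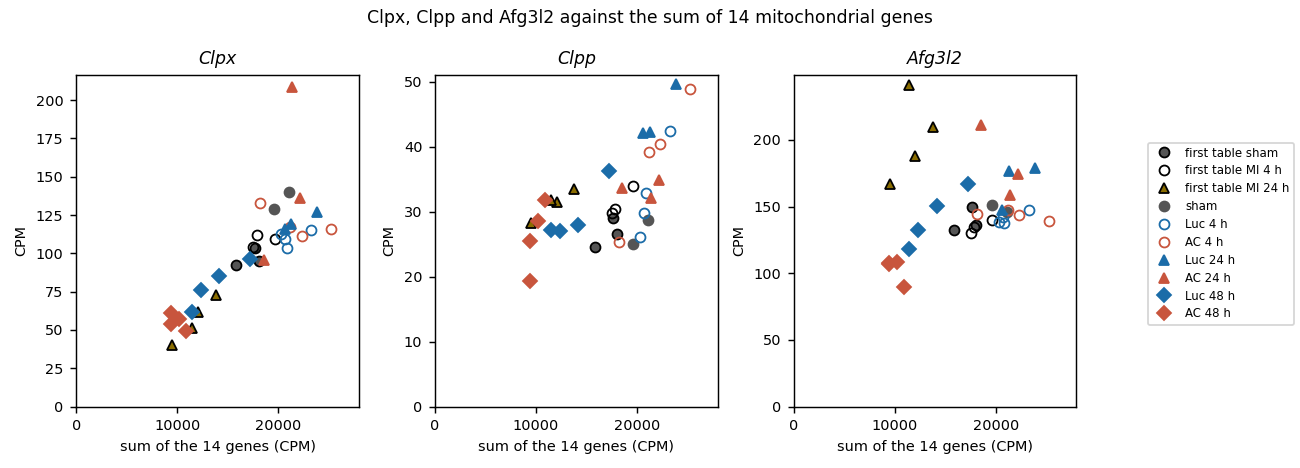
CPM of Clpx, Clpp and Afg3l2 (y axes, from 0) against the sum of 14 mitochondrial genes in the same library (x axis, CPM); each point is a library of the first (black outline) or second table, open for 4 h, triangles for 24 h and diamonds for 48 h. The late libraries with a low sum are low in Clpx (40.5 to 96.1 CPM in the 24 h hearts of the first table and the 48 h hearts of the second) , whereas their Clpp (19.4 to 36.2 CPM) spans the sham values, and Afg3l2 exceeds sham in the 24 h hearts of the first table (167 to 242 CPM).

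The 5 genes with the profile closest to Clpx were Pdha1, Ndufs1, Nipsnap2, Dlat and Suclg2. Closeness was the root mean square difference of the log2 differences from the own sham over 8 MI groups, the 24 h hearts that chose the set included, among 7351 genes with at least 10 CPM in both tables. Pdha1 and Dlat, subunits of the pyruvate dehydrogenase complex, were at 0.102 and 0.135, Ndufs1 of complex I at 0.103, Nipsnap2 at 0.124 and Suclg2, a succinyl-CoA ligase subunit of the citric acid cycle, at 0.137. Pdha1 differed from sham by -0.76 at 24 h in the first table and by -0.66 and -1.13 in Luc and AC hearts of 48 h, against -0.80, -0.76 and -1.27 for Clpx. Among the other members, Trap1 was closest (0.287, rank 273) and Hspa9 next (0.300, rank 329), whereas Clpp ranked 4391 (0.778).

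Other genes of the same machinery were counted from fixed lists. Of 12 further mitochondrial proteases and processing peptidases, 8 were lower and none was higher in Luc hearts of 48 h against sham, led by Mipep, the intermediate peptidase that trims imported proteins (-1.20, q = 9.77e-06), and Oma1, a stress-activated protease of the inner membrane (-1.07, q = 0.000805), with a median of -0.58 over the list. Over all genes 16.4% were lower there and the median was -0.03, and of the 14 mitochondrial genes summed above, 10 were lower, with a median of -0.61. Of 13 further chaperones, 5 were lower, led by the disaggregase Clpb (-0.71, q = 0.00103) and Bcs1l, an assembly factor of complex III (-1.03, q = 0.00370), with a median of -0.21. At 4 h against sham no protease passed limma's test in either table (1 unadjusted in the first and 0 in the second), and the co-chaperone Dnajc15 alone passed among the chaperones, in the first table (0.89, q = 0.00508). For AC against Luc, no gene of either list passed at any time by limma (unadjusted, 1 protease and 2 chaperones at 48 h and 0 at 4 and 24 h).

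Of 9 substrates and partners of these proteases, 3 were lower and 2 higher in Luc hearts of 48 h against sham. Opa1, the fusion dynamin that Yme1l1 and Oma1 cut, was lower (-0.56, q = 0.00347), as were Tfam, the DNA-packaging factor degraded by Lonp1 (-0.74, q = 0.00122), and Alas2 (-1.40, q = 0.0118). Prelid1, a lipid carrier cut by Yme1l1, was higher (1.48, q = 0.000236), as was Xiap (0.62, q = 0.0269), an inhibitor of caspases that Htra2 binds. Alas1, the heme synthesis enzyme whose cofactor Clpx helps to insert, did not pass (0.01, q = 0.986), and these last 2 genes were named after their values were seen. From 24 to 48 h, Alas1 fell in AC hearts (-0.62, q = 0.0109) and did not pass in Luc hearts (-0.25, q = 0.298). In the 24 h hearts of the first table it differed from sham by -0.69, given as a description. Of 6 regulators of the mitochondrial stress response, Ddit3 (1.09, q = 0.00317) and Atf4 (1.003, q = 0.00456) were higher and Ubl5 (-0.83, q = 0.00939) and Sirt3 (-0.51, q = 0.0203) lower in the same comparison, and against Luc hearts of 4 h the differences of Ddit3 and Atf4 were 0.38 and 0.14 and did not pass (q = 0.162 and 0.622). Atf4 and Ddit3 were also higher in Luc hearts of 24 h (1.57 and 0.97, q = 0.000132 and 0.00938), when Clpx did not differ from sham by the test. In the 24 h hearts of the first table, where Clpx was below sham, they differed from sham by 2.59 and 1.79, given as a description. A link between these genes and Clpx was not tested.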

How the data were processed

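RNA was sequenced from LV tissue of 34 libraries, 10 in a first and 24 in a second table. For the first table the authors used STAR for alignment of single reads to mm10, Partek's E/M algorithm for counting on RefSeq annotation and TMM for normalization, giving deposited CPM; how the second was made is not given in the sources used here. Its deposited CPM hold an added 1 (the lowest value is exactly 1), which was subtracted. Groups came from the sample labels. Estimated reads per library of the first table were 12553519 to 18952669, taken from the lowest value, 1 read being worth 0.0313 to 0.0479 CPM; too few low values (83.2 to 85.2%) were whole multiples of it, within 0.05, to recover reads. Depth is unknown in the second, where a value bears no interval.

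Genes whose mean reached 1 CPM (12487 and 12555, all 10 members included) were tested with limma 3.58.1 in R 4.3.3 on log2(CPM + 1), with a mean-variance trend and 1 model per table without covariates, and Benjamini-Hochberg adjustment over all genes tested (q under 0.05). Fold changes on this scale understate low genes. Ratios of group means carry SDs propagated from both groups. The Clpx to Clpp ratio was tested by exact two-sided permutation. Lengths and overlaps came from GENCODE M21, promoters from RefSeq on GRCm38.p6. The script was tested on simulated data. The members and lists were chosen with earlier results of these data known. Genes named are the members, up to 4 called genes of lowest q per list and comparison, and the 5 profiles closest to Clpx. Alternatives were pseudocount 0.1, other filters, no trend, array weights, rescaling by median ratio, the compared groups alone, a block for the replicate number, and fits without each library in turn; a reference of 4 h hearts was added after the data were seen.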

Additional observations from a re-analysis of the deposited data

Results flagged for a closer look

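8 values of the members lay far from the other 3 libraries of their group, among 50 groups of 4 checked, of which chance gives about 1 in 20. At 48 h, AC replicate 1 was the low library for Hspa9 (389 CPM, others 496 to 516), Trap1 (69.0 CPM, others 81.6 to 83.2) and Afg3l2 (89.5 CPM, others 107 to 109), and Luc replicate 1 was the high library for Hspa9 (705 CPM, others 476 to 514) and Clpp (36.2 CPM, others 27.0 to 27.9). Luc replicate 1 of 48 h was also the highest Luc heart of that time for Clpx (96.1 CPM) and for the sum of mitochondrial genes (17233 CPM). At 4 h, Luc replicate 1 was high for Lonp1 (144 CPM, others 129 to 130.1) and Htra2 (26.2 CPM, others 20.6 to 21.4), and Luc replicate 4 was low for Hspd1 (282 CPM, others 300.2 to 302).

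Clpx at 4 h lay on opposite sides of sham in the 2 tables. All 3 uninjected hearts lay above their 3 sham hearts, as they did for 10.9% of all genes. All 4 Luc hearts (mean 110.1 CPM) lay below their 2 sham hearts, as they did for 15.3% of all genes. Neither difference passed its own test, and the difference between the tables was not tested.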

How the results depend on the processing

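Over 1580 fits of single members under alternatives, 1500 stayed on their side of the threshold, 54 lost a call, 26 gained one and 0 turned direction. Most of these fits are of members that had not passed in the contrast, so the total does not measure how firm the calls are. Clpx for AC against Luc at 48 h lost its call in 10 of 16 fits, and Hspe1 for Luc 24 h against Luc 4 h in 6 of 14. The number of members that passed is given here for each comparison where it moved by over 1.5 times, against the number reported. With a library left out, it was 0 to 1 for Luc 4 h against sham (reported 0), 1 to 5 for Luc 24 h against sham (4), 0 to 2 for AC against Luc at 48 h (2), 0 to 3 for Luc 24 h against Luc 4 h (3) and 0 to 1 for AC 24 h against AC 4 h (0). In models of the 2 compared groups alone, it was 2 for Luc 24 h against sham, 1 for Luc 48 h against sham and 0 for AC against Luc at 48 h. Median-ratio rescaling gave 4 for Luc 48 h against Luc 24 h (7), 1 for AC 24 h against AC 4 h and 1 for the AC effect at 48 h minus 4 h (0), and array weights gave 5 for Luc 24 h against Luc 4 h and 2 for AC 24 h against AC 4 h. A filter at 10 CPM gave 1 for AC against Luc at 48 h. With 4 h hearts as the reference, chosen after seeing the data, 7 members passed for Luc at 48 h, and among other genes Hspa1b (-1.23) and Dnajb1 (-1.35) were lower where they were higher against sham. Between these Luc groups, 5 members lay wholly lower at 48 h and 1 wholly higher, where 22.3% and 15.2% of all genes did. The log2 Clpx to Clpp difference ranged with a library left out from -0.34 to 0.04 for AC against Luc at 4 h and from -0.52 to -0.18 at 48 h.

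With the replicate number as a replicate block, 0 members passed for AC against Luc at 48 h, with Clpx at -0.48 (q = 0.192) and Afg3l2 at -0.44 (q = 0.163). Deviations of same-numbered AC and Luc libraries correlated at 0.288, 0.275, -0.183 and 0.147 at 4 h, -0.011, -0.107 and 0.019 at 24 h and 0.237, -0.260 and 0.224 at 48 h. Differently numbered libraries of 4 h correlated at -0.542 to 0.649. With so few libraries per group, these values cannot decide whether the numbers pair the hearts.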
